A study of Mus musculus with 30 samples.

Results

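Alternative splicing events of the Purkinje cell layer at postnatal day 28 were set beside the same events in embryonic cortical neurons. Members were the events of the Purkinje Nova2 table whose event name and isoforms were also listed in the Emx1-Cre or the Gad2-Cre cortical Nova2 table. The members were thus chosen by the authors' difference and FDR between control and cKO in each table. There were 207 such events in 84 genes, out of 603 events (34.3%) in the Purkinje table and 4923 events over all 4 splicing tables of the series. Of these, 161 were shared with the Emx1-Cre table (6.00% of its 2682 events) and 147 with the Gad2-Cre table (7.46% of its 1970 events), with 101 listed in all 3 tables.

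The Purkinje cell layer of the cerebellum was dissected on postnatal day 28, from Nova2-cKO_Pcp2-Cre and from Wild-type_Pcp2-Cre mice. Neurons of the cortex were sorted on embryonic day 18.5, from mice labelled Nova2-cKO_Emx1-Cre and Wild-type_Emx1-Cre, and from mice labelled Nova2-cKO_Gad2-Cre and Wild-type_Gad2-Cre. Every group had 3 C57BL/6J samples, the controls carry the Cre label too, and all RNA had ribosomal RNA removed. cKO stands for conditional knockout of Nova2. Pcp2-Cre acts in Purkinje cells, Emx1-Cre in the lineage of cortical excitatory neurons and Gad2-Cre in inhibitory neurons, as background. The dissected layer also holds other cells, which keep Nova2 in the cKO mice.

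The protein made from Nova2 is an RNA-binding protein of neurons that binds clusters of YCAY, where Y is C or T, and that promotes or blocks the use of nearby exons depending on where it binds. Purkinje cells are the inhibitory output neurons of the cerebellar cortex and, like Gad2 neurons, use GABA. Many neuronal exons change their inclusion between embryonic and mature brain.

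An inclusion level is the fraction, from 0 to 1, of an event's RNA that holds the alternative region. For mutually exclusive exons and alternative 5' or 3' splice sites it is the share of the isoform named first, so higher and lower have no order of inclusion there. Each table gives 1 level per group, pooled by the authors over libraries, so no level here has an SD or a replicate check, no test between Purkinje layer and cortex could be made, and every difference below is a description. The labels do not say which Purkinje group is the control. Both levels are therefore given, as Purkinje group 1 and group 2, and an event is called higher or lower only when both levels lay at least 0.1 above or below the cortical control. Age, brain region, Cre line, and dissection against sorting all differ together between the Purkinje layer and cortex, and their parts cannot be told apart. In these bulk samples a different mix of cells and a different splicing within cells cannot be told apart either. The authors listed events with an FDR up to 0.05 and a difference of at least 0.1 between control and cKO. The smallest listed Purkinje difference among members, in the authors' deposited table, was 0.101, in Fam73b, and the highest FDR was 0.0498, in 1810022K09Rik. Events outside these limits were not analysed here. Because the 2 Purkinje levels of every member differ by at least 0.1, an event with both levels close to a cortical control was nearly barred by the selection.

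The label could be checked only in part, because the tables hold splicing and not expression. Of 15 marker genes of Purkinje cells, 2 had an event in the Purkinje table and 1, Itpr1, had a member. No marker gene of granule cells, molecular layer interneurons, Bergmann glia and astrocytes, oligodendrocytes, microglia, blood vessels, or cortical excitatory or inhibitory neurons had a member, which bears on listing and not on the cell mix. Coverage, a signal deposited once per event and comparison, was between 21 and 3920 for members in the Purkinje table (median 136), between 26 and 1359 in the Emx1-Cre table (median 153) and between 20 and 1884 in the Gad2-Cre table (median 78.1).

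The exons below are the cassette exons of 100 nt or less, annotated as coding in full, that the naming rule picked and whose Purkinje levels both lay at least 0.1 from every listed cortical control. They are shown so that the sequence at stake can be read beside the levels given further on. Other members, such as exons of Immt, Ktn1, Mctp1, Mink1, Ralgapb and Ssbp4, passed the same limits of length and level and are not shown, so these 5 do not stand for the members. They are GENCODE M21 exons on mouse build mm10, written 5′ to 3′ on the gene's strand, with each run of the 4 letters YCAY in capitals. Arhgap32, Camk2g and Grik1 each hold 2 such runs and Sptan1 and Grin1 hold 0.
Sptan1, 60 nt, chr2:30001100-30001159, plus strand: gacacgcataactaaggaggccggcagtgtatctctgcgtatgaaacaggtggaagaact
Arhgap32, 42 nt, chr9:32152668-32152709, plus strand: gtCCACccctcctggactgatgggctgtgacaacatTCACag
Camk2g, 69 nt, chr14:20745792-20745860, minus strand: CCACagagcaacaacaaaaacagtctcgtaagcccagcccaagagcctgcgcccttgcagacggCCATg
Grin1, 63 nt, chr2:25311343-25311405, minus strand: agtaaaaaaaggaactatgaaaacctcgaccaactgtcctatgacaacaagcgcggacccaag
Grik1, 87 nt, chr16:87896809-87896895, minus strand: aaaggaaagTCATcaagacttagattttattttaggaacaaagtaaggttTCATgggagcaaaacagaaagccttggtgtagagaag

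All 5 exons have coding annotation. Purkinje inclusion was higher than in the cortical controls for the Sptan1, Arhgap32, Camk2g and Grin1 exons, and lower for the Grik1 exon.

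Over all members, 47 events in 21 genes were higher and 42 events in 11 genes were lower in both Purkinje groups than in every listed cortical control. Another 114 events in 57 genes had at least 1 Purkinje level within 0.1 of a control or levels on both sides, and 4 events in 3 genes had every Purkinje level within 0.1. Immt alone held 28 members and accounted for 28 of the 42 lower events. Taking for each gene its best covered event, 19 of 84 genes were higher, 7 were lower, 2 were within 0.1 and 56 were mixed.

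Against the Emx1-Cre control, 60 of 161 shared events (37.3%) were higher in both Purkinje groups and 10 (6.21%) were lower. Group 1 lay at least 0.1 above the control at 63 events (39.1%) and at least 0.1 below it at 25 (15.5%), and group 2 at 108 (67.1%) and 32 (19.9%). The median Purkinje minus Emx1-Cre control difference was 0.0230 for group 1 and 0.196 for group 2. Both groups thus had more events above than below the excitatory control, by different margins.

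Against the Gad2-Cre control, 30 of 147 shared events (20.4%) were higher in both Purkinje groups and 39 (26.5%) were lower. Group 1 lay at least 0.1 above at 32 events (21.8%) and below at 49 (33.3%), and group 2 at 75 (51.0%) and 59 (40.1%). The median Purkinje minus Gad2-Cre control difference was -0.0158 for group 1 and 0.117 for group 2. The count below rests largely on Immt, whose coverage in the Gad2-Cre table was 20, the lowest listed. Without Immt, a choice made after the data were seen, group 1 was below at 21 of 119 events and the group 1 median difference was 0.0188.

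**Figure D1:**
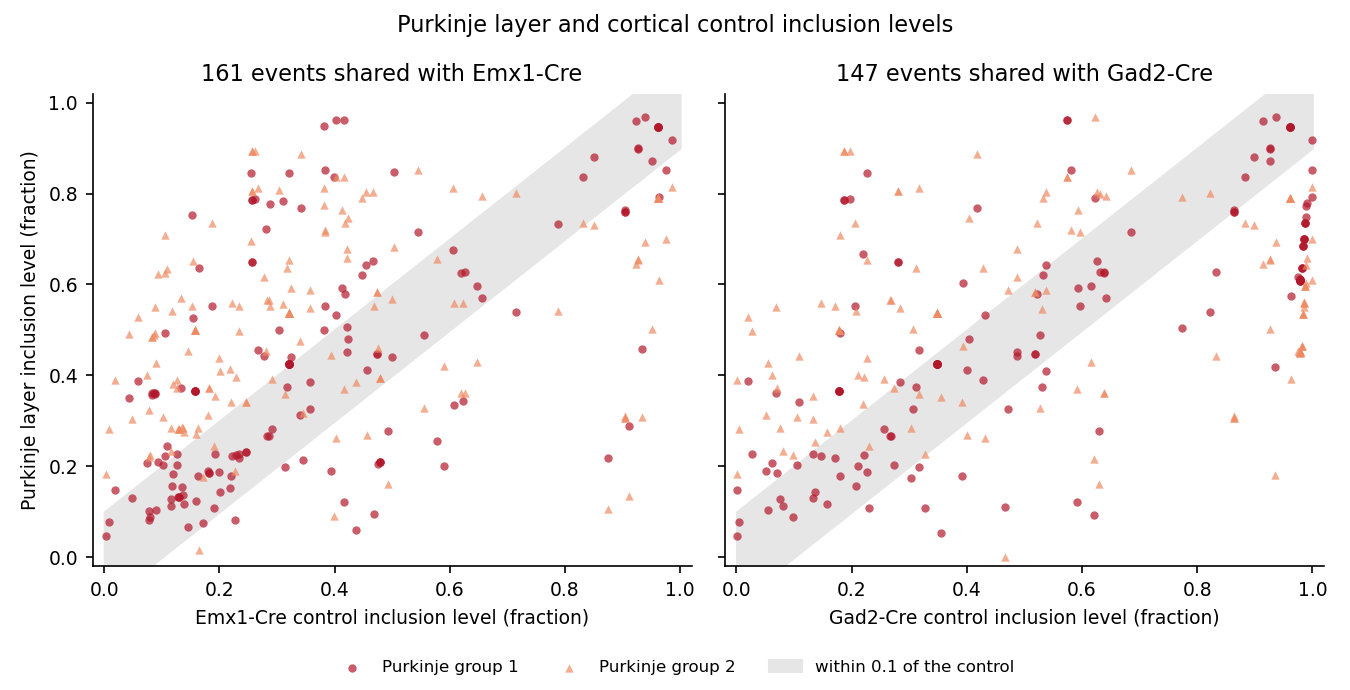
Inclusion level (fraction) of each shared event in Purkinje group 1 (circles) and group 2 (triangles) against its level in the Emx1-Cre control (left, 161 events) and the Gad2-Cre control (right, 147 events). Points in the grey band lie within 0.1 of the control. On the left most points outside the band lie above it, and on the right a column of Immt events with a control level near 1 lies below it.

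Sptan1, Ank2 and Epb4.1l3 were higher in the Purkinje layer. The 60 nt exon of Sptan1, which encodes the alpha-II spectrin of the submembrane skeleton, had levels of 0.845 and 0.695 in Purkinje groups 1 and 2, against 0.255 in the Emx1-Cre control. The 183 nt coding exon of Ank2, at chr3:126928665-126928847, had 0.768 and 0.886 in the Purkinje groups, against 0.342 in the Emx1-Cre and 0.417 in the Gad2-Cre control. Ank2 encodes ankyrin-B, which ties membrane proteins to spectrin, and all 5 of its members were higher. For Epb4.1l3, which encodes a spectrin-binding protein of the membrane skeleton, the 117 nt region had 0.961 and 0.836, against 0.402 and 0.574 in the Emx1-Cre and Gad2-Cre controls. These 3 genes were picked by the naming rule for their distance above the controls.

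Map4, which encodes a microtubule-binding protein, was higher at one event and lower at another within chr9:110068693-110083954. Its 114 nt coding exon was included at 0.341 and 0.444 in the Purkinje groups, against 0.108 in the Gad2-Cre control. A mutually exclusive choice of Map4 had 0.279 and 0.161 for the isoform named first, against 0.494 in the Emx1-Cre and 0.629 in the Gad2-Cre control. Such a level gives the share of the first named isoform and has no order of inclusion.
The adaptor gene Ccdc64, whose product links vesicles to motors, had a 227 nt region included at 0.759 and 0.306, against 0.904 and 0.864 in the Emx1-Cre and Gad2-Cre controls. Group 2 of the Purkinje layer stood far lower there than group 1. Ank3, encoding ankyrin-G, had an alternative 3' site event at 0.114 and 0.235 for the isoform named first. The 2 controls had 0.116 and 0.0809, so the group 1 level of Ank3 was near the Emx1-Cre control. Of 80 listed genes of cytoskeleton and motors, 13 had an event in the Purkinje table and 6 a member, against 84 of all 254 genes of the Purkinje table. By their best covered event 3 were higher and 3, Ank3 among them, were mixed. Of all 84 genes with a member, 19 were higher and 56 mixed.

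Glutamate receptor genes were higher at one exon and lower at others. Grin1, which encodes the obligatory NMDA receptor subunit, had its 63 nt exon, which encodes the N-terminal cassette, at 0.208 and 0.402 in the Purkinje groups, against 0.0743 and 0.0609 in the Emx1-Cre and Gad2-Cre controls. Its 111 nt exon at chr2:25294438-25294548, which encodes a C-terminal cassette, had 0.288 and 0.134, against 0.911 in the Emx1-Cre control. A 91 nt form of that exon, with ends not in GENCODE, had 0.219 and 0.107, against 0.875. The Purkinje layer thus had more of the N-terminal and less of the C-terminal cassette than the controls in which each was listed. Emx1-Cre coverage of the C-terminal events was 26.

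The 87 nt exon of Grik1, a kainate receptor subunit gene, was at 0.111 and 0.000459 in the Purkinje groups, against 0.467 in the Gad2-Cre control, at a Purkinje coverage of 25.2. Camk2g, encoding the gamma subunit of calcium/calmodulin-dependent kinase II, had its 69 nt exon at 0.388 and 0.529, against 0.0580 and 0.0208 in the Emx1-Cre and Gad2-Cre controls. Both Purkinje levels lay above both controls, at a coverage of 35.4 in the Emx1-Cre and 22.0 in the Gad2-Cre table. Gphn, encoding the inhibitory synapse scaffold gephyrin, had a 108 nt exon at 0.190 and 0.314, against 0.180 in the Emx1-Cre and 0.0517 in the Gad2-Cre control. Of 58 listed postsynaptic genes, 8 had an event in the Purkinje table and 4 a member, against 84 of all 254 genes of the Purkinje table. By their best covered event 2 were higher, 1 lower and 1 mixed, against 19 higher, 7 lower and 56 mixed of all 84 genes with a member.

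Itpr1, the inositol trisphosphate receptor gene that Purkinje cells express strongly, was the best covered member, at 3920 in the Purkinje table. Its alternative 5' splice site event at chr6:108388185-108389554 had 0.459 and 0.308 for the isoform named first, against 0.934 in the Emx1-Cre control. Slc8a1, a sodium-calcium exchanger gene, had a 21 nt exon at 0.130 and 0.304, against 0.0475 and 0.132 in the Emx1-Cre and Gad2-Cre controls. The group 1 level of Slc8a1 was close to that of the inhibitory control, and the group 2 level exceeded both controls. Of 48 listed ion channel and pump genes, 7 had an event in the Purkinje table and these 2 had a member, a share near that of all genes of the Purkinje table, at 84 of 254 (33.1%). The lysosomal channel gene Mcoln1, which is outside that list, retained a 100 nt intron at 0.0941 and 0.216 in the Purkinje groups, against 0.622 in the Gad2-Cre control.

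Among cell adhesion genes, a tandem cassette of Nrcam, which encodes a neuronal cell adhesion molecule, was lower, at 0.792 and 0.609 in the Purkinje groups, against 0.963 and 1 in the Emx1-Cre and Gad2-Cre controls. Its best covered event, a 57 nt exon, was mixed, at 0.917 and 0.813 against 0.986 and 1. Ptprs, encoding a receptor tyrosine phosphatase of synapses, held 9 members, of which 2 tandem cassettes were within 0.1 of the Emx1-Cre control. The closer of these cassettes had 0.233 in Purkinje group 1 and 0.341 in group 2, against 0.246. Its 59 nt exon had 0.186 and 0.372 in the Purkinje groups, against 0.183 in the Emx1-Cre and 0.0699 in the Gad2-Cre control. Both synaptic adhesion genes with a member, of 46 listed, were mixed by their best covered event, as were 56 of all 84 genes with a member.
Syt7, encoding a synaptic vesicle calcium sensor, had a tandem cassette at 0.123 and 0.371, against 0.416 and 0.591 in the Emx1-Cre and Gad2-Cre controls. All 4 of 61 listed presynaptic and trafficking genes with a member (Dennd1a, Epn1, Epn2 and Syt7) were mixed, against 56 of all 84 genes with a member. The kinase gene Mink1 had its 87 nt exon at 0.627 and 0.442, against 0.833 in the Gad2-Cre control, where coverage was 22. Epha5, an ephrin receptor gene and the single member among 48 axon guidance genes, had the widest Purkinje spread, with its 66 nt exon at 0.837 in group 1 and 0.0909 in group 2, against 0.399 in the Emx1-Cre control. The Emx1-Cre control lay between the Purkinje levels there, and the Purkinje coverage was 24.

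Among regulators of small GTPases, the 42 nt exon of Arhgap32, a gene of a GTPase-activating protein, had 0.845 and 0.655 in the Purkinje groups, against 0.321 in the Emx1-Cre and 0.227 in the Gad2-Cre control. A 36 nt exon of Ralgapb, encoding a subunit of the Ral GTPase-activating complex, had 0.667 and 0.338, against 0.220 in the Gad2-Cre control. Rasal2, a Ras GTPase-activating protein gene, had 0.227 and 0.497 for the isoform named first at an alternative 3' site event. The Emx1-Cre and Gad2-Cre controls had 0.234 and 0.0274. Of 59 listed genes of this kind, 7 had an event in the Purkinje table and these 3 a member. By the best covered event 2 were higher and Rasal2 was mixed, against 19 higher and 56 mixed of all 84 genes with a member. Mcf2l, which encodes a guanine nucleotide exchange factor, had an 84 nt exon at 0.488 and 0.328, against 0.556 and 0.528, below both controls but with group 1 within 0.1.

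Among genes of RNA processing, Snrnp70 encodes the 70K protein of the U1 splicing particle. Its alternative 3' site event had 0.527 and 0.652 in the Purkinje groups for the isoform named first, against 0.154 in the Emx1-Cre control. The 4 cassette forms of Snrnp70 were also higher. Srsf1, a serine/arginine splicing factor gene, retained a 196 nt intron at chr11:88049216-88049411 at 0.365 and 0.499, against 0.158 and 0.177 in the Emx1-Cre and Gad2-Cre controls. All 5 Srsf1 members are this intron listed with different flanks, at equal levels. Rnpc3 is a minor spliceosome gene that the table names together with Amy1. Its alternative 3' site event had 0.790 and 0.968 for the isoform named first, against 0.623 in the Gad2-Cre control. Of 84 listed RNA-binding and splicing genes, 7 had a member and by the best covered event 2 were higher, 0 lower and 5 mixed, against 19 higher and 7 lower of all 84 genes with a member. The mixed ones included Hnrnpa2b1, with a 156 nt intron at 0.425 and 0.537, against 0.320 and 0.348 in the Emx1-Cre and Gad2-Cre controls. Srsf6 was also mixed, by a 1283 nt intron at 0.374 and 0.637, against 0.317 in the Emx1-Cre and 0.312 in the Gad2-Cre control. A 268 nt exon of Srsf6, picked among the most alike events, had 0.144 and 0.254, against 0.136 in the Gad2-Cre control.

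Further named events lay in genes outside these lists. Myl6, encoding an essential light chain of nonmuscle and smooth muscle myosin, ranked first above both controls by the smaller of its 2 Purkinje differences, with a tandem cassette at 0.785 and 0.893 in the Purkinje groups, against 0.257 in the Emx1-Cre and 0.187 in the Gad2-Cre control. A cassette region of 9955 nt in the noncoding Meg3 locus, with ends not in GENCODE, had 0.852 and 0.721, against 0.383 and 0.580. Mctp1, encoding a C2 domain membrane protein, had 0.777 and 0.553, against 0.288 in the Emx1-Cre control, and Acbd4, encoding an acyl-CoA-binding protein, had 0.373 and 0.570, against 0.133. The naming rule picked these 4 genes for their distance above the controls, and 47 of all 207 members were higher.
The 102 nt exon of Immt, which encodes the mitofilin protein of the inner mitochondrial membrane, had 0.419 and 0.181 in the Purkinje groups, against 0.935 in the Gad2-Cre control. Tcea2, an elongation factor gene, retained a 267 nt intron at 0.20 and 0.422, against 0.589 in the Emx1-Cre control. Uhrf1bp1l retained a 967 nt intron at 0.109 and 0.228, against 0.328 in the Gad2-Cre control.

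**Figure D2:**
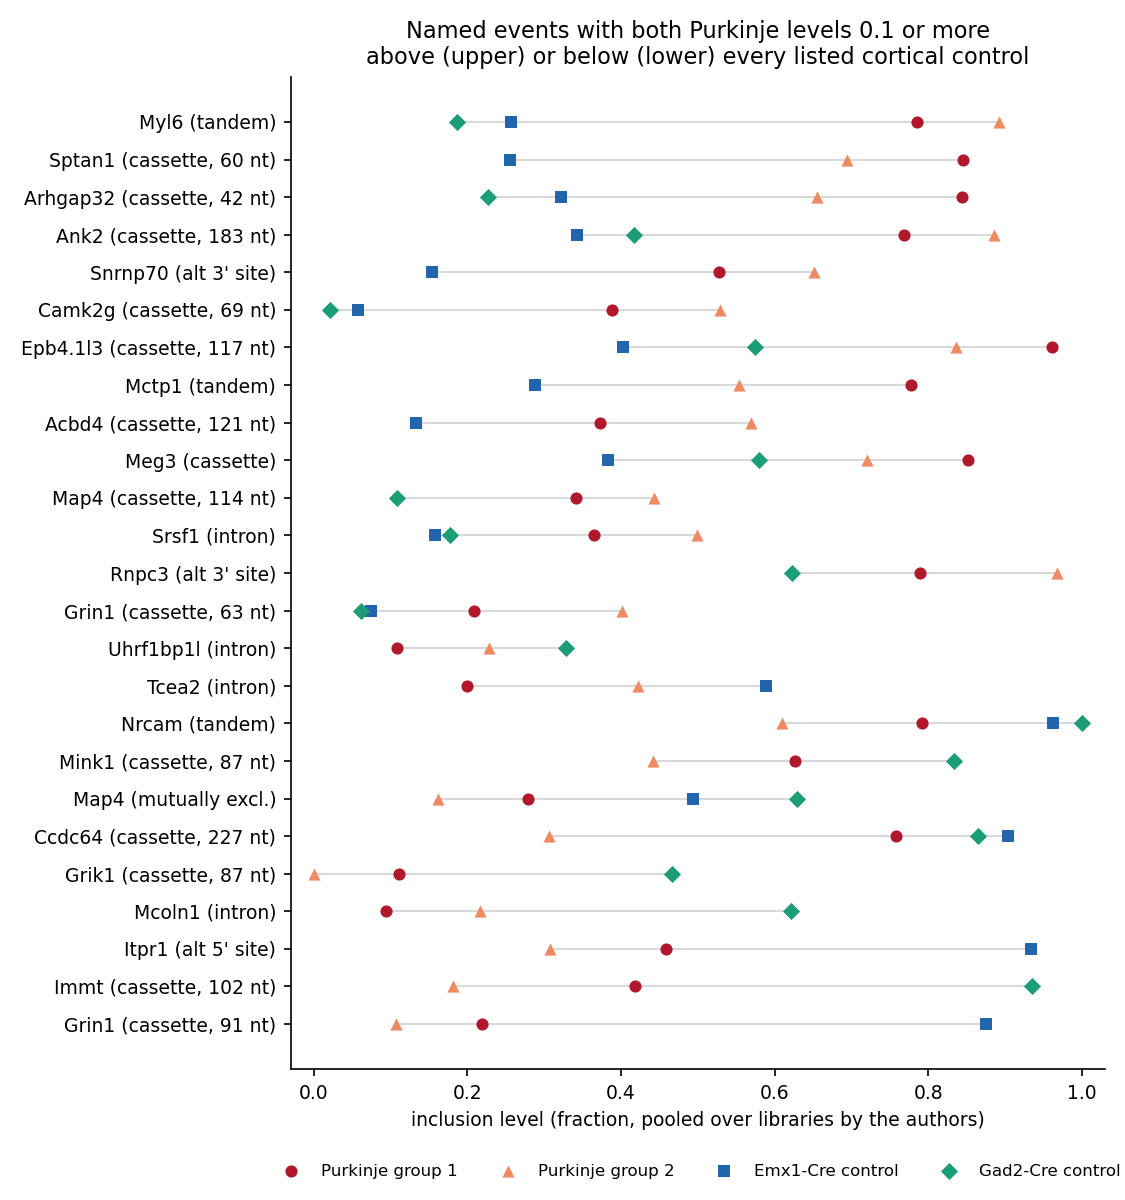
Inclusion level (fraction) of the named events whose Purkinje levels both lay at least 0.1 above (upper rows) or below (lower rows) every listed cortical control, with Purkinje group 1 (circle), Purkinje group 2 (triangle), Emx1-Cre control (square) and Gad2-Cre control (diamond). Myl6, Sptan1 and Arhgap32 stand at the top, and the 91 nt Grin1 region, Immt and Itpr1 at the bottom, an order fixed by the choice of these events.

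The members closest to cortex were in Srpk2, Ptprs, Fam73b, Mat2a, Vps16 and Srsf6. A tandem cassette of Srpk2, a kinase gene of splicing factors that the table names with overlapping genes, had 0.441 and 0.569 in the Purkinje groups, against 0.50 in the Emx1-Cre control. Mat2a, encoding an S-adenosylmethionine synthetase, retained a 585 nt intron at 0.447 and 0.584, against 0.474 in the Emx1-Cre and 0.519 in the Gad2-Cre control. In Mat2a the controls lay between the Purkinje levels.

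By type, 23 of 76 cassette exons were higher and 12 lower, 13 of 66 tandem cassettes were higher and 25 lower, and 7 of 40 retained intron events were higher and 3 lower. Of the 25 lower tandem cassettes, 24 are overlapping forms of Immt, and without Immt 1 of 42 tandem cassettes was lower. The 40 retained intron events are 27 distinct introns in 26 genes, of which 3 were higher, 3 lower, 1 within 0.1 and 20 mixed. For most retained introns the 2 Purkinje levels thus did not both lie at least 0.1 to one side of every listed control. Some of the mixed introns still had both levels on the same side. The Hnrnpa2b1 intron was above both controls, with group 1 within 0.1 of the Gad2-Cre control. Their median length was 585 nt. Cassette exons made up 36.7% of members and 44.4% of the Purkinje table, and retained introns 19.3% and 13.6%.
The 75 distinct cassette exons of the members had a median length of 88 nt, and 50 (66.7%) had a length that is a multiple of 3, against 113 of 187 (60.4%) of the other Purkinje cassette exons and 933 of 1730 (53.9%) over all 4 tables. Coding sequence overlapped 66 of the 75. YCAY, searched with Y as C or T on the transcribed strand with overlaps allowed, was found in 40 of 54 member exons with a GENCODE sequence (74.1%), in 71 of 100 other Purkinje exons (71.0%) and in 678 of 986 exons of all 4 tables (68.8%). It was found in 10 of 14 higher, 7 of 7 lower and 23 of 33 mixed exons, where 4 of the 7 lower exons are overlapping or neighbouring exons of Immt, and in 312 of 581 exons of 100 nt or less over all tables (53.7%). A match is a description of letters and not a binding site, and introns were not searched.

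The cortical cKO levels place the Purkinje levels on a second scale. Over the 161 Emx1-Cre events, group 1 lay nearer the cortical control than the cortical cKO at 118 and group 2 at 49. Both groups were nearer the cKO at 39 events and both nearer the control at 45. Over the 147 Gad2-Cre events, group 1 was nearer the control at 90 and group 2 at 27, with both nearer the cKO at 54 and both nearer the control at 24. All 28 Immt events were nearer the cKO in group 1, and without Immt group 1 was nearer the control at 90 of 119 events. The 2 groups thus differed in this respect at many events.
Group 1 minus group 2 had the same sign as control minus cKO at 156 of 161 Emx1-Cre and 141 of 147 Gad2-Cre events. The exceptions were in Acin1, Syt7 and Tcea2 for Emx1-Cre and in Bnip2, Epn2, Mcoln1, Rbm25, Slc25a25 and Syt7 for Gad2-Cre. Members were chosen by the size and FDR of these differences and not by their sign. Overlapping events of a gene share reads, and the labels name no Purkinje order, so the group order was left unnamed here. In size, the Purkinje group difference was smaller than the cortical one at 127 of 161 and 112 of 147 events, with a median of 0.160 against 0.258 for Emx1-Cre and of 0.157 against 0.213 for Gad2-Cre.

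Of the 60 events higher than the Emx1-Cre control in both groups, 49 in 15 genes lay on the side of the control where the cortical cKO lies, and 11 in 5 genes on the other side. For comparison, the cKO exceeded the control at 113 of all 161 events. All 10 lower events lay on the cKO side. In Ank2 the Purkinje levels of 0.768 and 0.886 lay between the Emx1-Cre cKO, at 0.977, and its control, at 0.342. In Myl6 they lay past the cKO, which was at 0.444 against 0.257 in the control.
The other side held Sptan1, Epb4.1l3, Meg3, Arhgap32 and Mctp1. There the cortical cKO was lower than the control and the Purkinje layer higher, as for Sptan1, with 0.0865 in the Emx1-Cre cKO, against 0.255 in the control. For the Gad2-Cre table, 25 of 30 higher events, in 14 genes, and 38 of 39 lower events, in 8 genes, lay on the cKO side. Of the 38 lower ones, 28 were overlapping events of Immt, at a Gad2-Cre coverage of 20. The single lower exception was the Uhrf1bp1l intron, at 0.568 in the Gad2-Cre cKO. Over all 147 Gad2-Cre events the cKO exceeded the control at 79. In each cortical table the Purkinje and cKO differences share 1 control level, which ties their sides together.

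**Figure D3:**
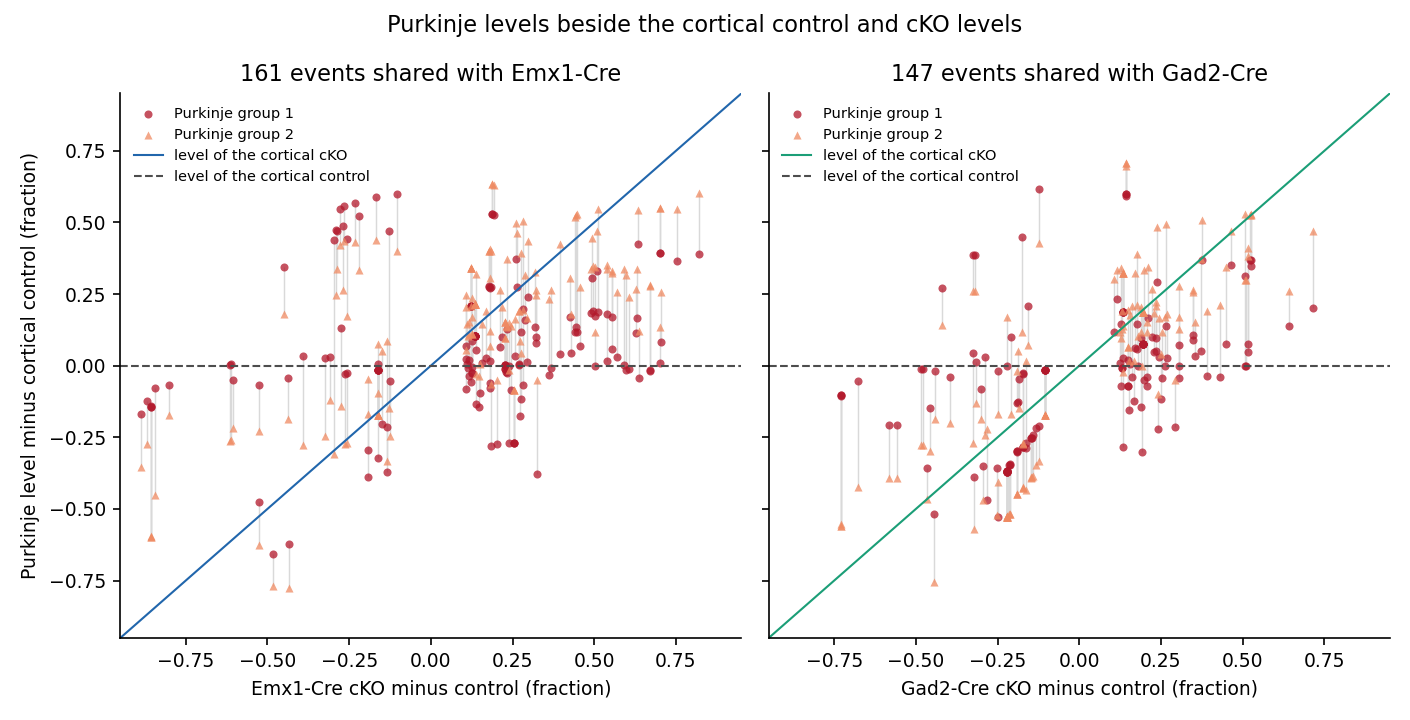
Purkinje level minus cortical control level (fraction) in group 1 (circles) and group 2 (triangles) against cortical cKO minus control (fraction), for Emx1-Cre (left) and Gad2-Cre (right); grey lines join the 2 Purkinje levels of an event. The dashed line is the control and the diagonal the cKO, and the Emx1-Cre events of Sptan1, Epb4.1l3, Meg3, Arhgap32 and Mctp1 stand at the upper left, on the other side of the control from the cKO.

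At the events listed in all 3 tables, the 2 cortical controls were closer to each other than to either Purkinje group, by median absolute difference. Listing required the 2 Purkinje levels of an event to be at least 0.1 apart, and required no such gap between the cortical controls. This order is therefore in part built in by the selection. Over the 101 events listed in all 3 tables, the median absolute difference from the Emx1-Cre control was 0.0858 for group 1 and 0.262 for group 2, and from the Gad2-Cre control 0.0764 and 0.220. Between the cortical controls it was 0.0294. At these 101 events, group 1 was at least 0.1 from the Emx1-Cre control at 49 and group 2 at 96, while the cortical controls were at least 0.1 apart at 18. Over all 823 events shared by the cortical tables, the controls were at least 0.1 apart at 249 (30.3%).
Both Purkinje levels lay outside the range of the 2 cortical controls, on the same side, at 67 of 101 events. Across events, Pearson's r of levels was 0.650 between group 1 and the Emx1-Cre control, 0.301 for group 2, 0.731 between group 1 and the Gad2-Cre control, 0.25 for group 2 and 0.969 between the cortical controls (n = 161, 161, 147, 147 and 101 events). Overlapping events of a gene share reads, and events with a listed cKO difference were chosen, so these values only describe the members.

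**Figure D4:**
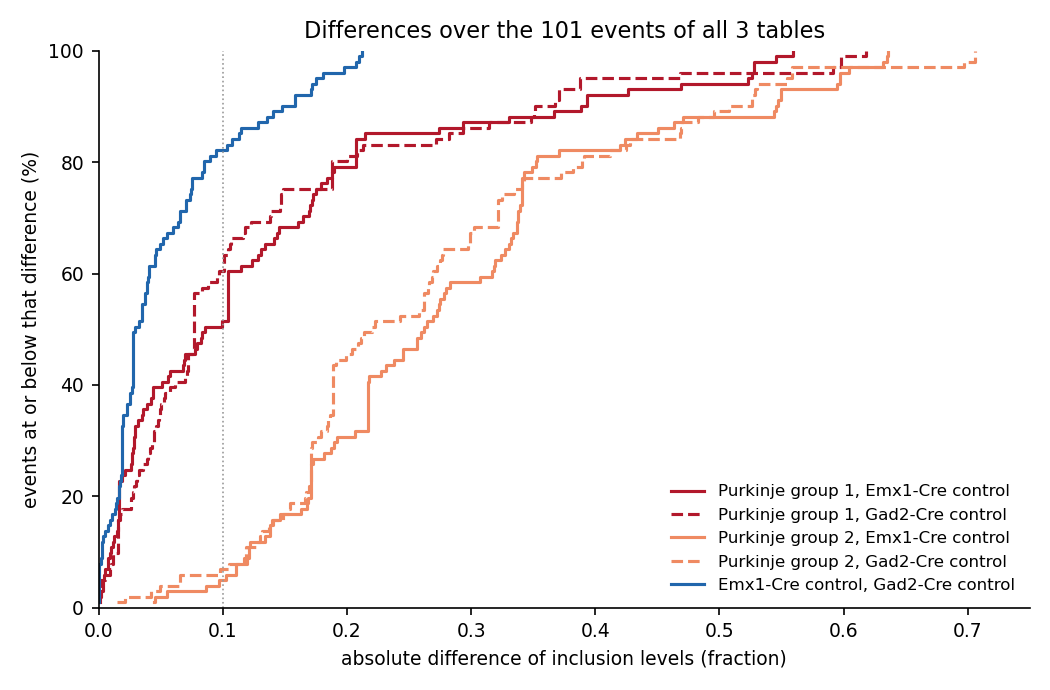
Share of the 101 events of all 3 tables (%) at or below each absolute difference of inclusion levels (fraction), for Purkinje group 1 and group 2 against each cortical control and for the 2 cortical controls against each other. The curve of the cortical controls rises first, and the group 2 curves lie furthest right; the dotted line marks 0.1.

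Whether Purkinje levels lay nearer the inhibitory or the excitatory control depended on how events were counted. Group 1 was nearer the Gad2-Cre control at 54 of 101 events and group 2 at 63, but with 1 event per gene group 1 was nearer at 16 of 45. Where the cortical controls were at least 0.1 apart, at 18 events in 12 genes, both groups were nearer the Gad2-Cre control at 10 events and nearer the Emx1-Cre control at 5. Of the 10, 5 were overlapping events of 4833439L19Rik, at a Gad2-Cre coverage of 24.9, and the others were in Ccdc88a, Epb4.1l3, Meg3 and Trp53bp1. In Ccdc88a, Epb4.1l3 and Meg3 both Purkinje levels lay above both controls, so the nearer control was simply the higher one. For Ccdc88a, which encodes an actin-binding protein, an 84 nt exon had 0.579 and 0.735, against 0.521 in the Gad2-Cre and 0.418 in the Emx1-Cre control. The 5 nearer the Emx1-Cre control were in Gphn, Map4, Ptprs, Rasal2 and Syt7. Both Purkinje levels lay above both controls in Gphn and Ptprs, where the nearer control was again the higher one. In Map4 and Syt7 both lay below both controls, and the nearer control was the lower one. Only in Rasal2 did a Purkinje level, that of group 1, lie between the controls.

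Of 39 listed genes known as NOVA targets from earlier work, 12 had an event in the Purkinje table and 6 a member (Ank3, Camk2g, Gphn, Map4, Nrcam and Ptprm), against 84 of all 254 genes of the Purkinje table. By the best covered event Camk2g was higher and 5 were mixed, against 19 higher and 56 mixed of all 84 genes with a member. A 75 nt exon of Ptprm, encoding a receptor tyrosine phosphatase, had 0.603 and 0.466 in the Purkinje groups, against 0.393 in the Gad2-Cre control. All lists were chosen with results of these data known, so their counts are descriptions.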

How the data were processed

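RNA of 18 samples, 3 in each of 6 groups taken from the labels, lies behind the tables used. The other 12 of 30 samples were not analysed here, and no label states that samples within a group are separate animals. The authors quantified splicing with Quantas on mm10, per the labels. Kallisto and edgeR appear in the submitters' processing notes without a role, and the aligner and all versions are not given in the sources used here. Per the file headers, the deposited tables give an inclusion level per group, which is a fraction from 0 to 1. They also give the deposited difference, a score equal to group 1 minus group 2 within 3e-08, the authors' p-value and FDR, and the deposited coverage, a signal of undefined unit that is 20 or more. Library depth is unknown. Positions came from deposited intervals and exon sequences from GENCODE M21 transcripts. The labels order the cortical tables as control, then cKO, and name no order for the Purkinje table.

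Levels were compared by subtraction with Python 3.11.15 and pandas 2.3.3, in steps tested on simulated data. With pooled levels no test was made. Members, gene lists and naming rule were chosen with earlier results of these data known. Named were, with 1 event per gene, the 10 events per cortical table furthest above and the 10 furthest below by the smaller of the 2 Purkinje differences, the 6 most alike, and up to 4 examples per gene list; the Ccdc88a, Epha5 and Hnrnpa2b1 values and the overlapping forms of a named gene were added after their values were seen. Alternatives were coverage of at least 50, 1 event per gene, cassette exons only, matching by name alone, a difference of 0.2, and leaving out Immt.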

Additional observations from a re-analysis of the deposited data

How the results depend on the processing

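No paired analysis was possible because each table holds 1 pooled level per group, and for the same reason no replicate could be left out. Values here are of Purkinje group 1 unless group 2 is named. With Purkinje group 2, events at least 0.1 above the Emx1-Cre control numbered 108 in place of 63 and above the Gad2-Cre control 75 in place of 32. With group 2 the median difference was 0.196 in place of 0.0230 for Emx1-Cre and turned to 0.117 from -0.0158 for Gad2-Cre, and the median absolute difference was 0.246 and 0.270 in place of 0.104 and 0.118. Events nearer the cortical control than the cKO numbered 49 in place of 118 for Emx1-Cre and 27 in place of 90 for Gad2-Cre. The cause of these differences between the columns was not tested.

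The other settings mostly reduce the number of events. With 1 event per gene, 20 were above and 11 below the Emx1-Cre control, of 69 genes, and 18 above and 16 below the Gad2-Cre control, of 60, and 54 and 43 were nearer the control than the cKO, with 16 of 45 nearer Gad2-Cre. With cassette exons only, 25 were above and 9 below of 62, 17 above and 15 below of 58, 45 and 42 were nearer the control, and 23 of 44 nearer Gad2-Cre. With a coverage of at least 50 in both tables, 47 of 124 were above and 15 below the Emx1-Cre control, 22 of 81 were above and 13 below the Gad2-Cre control, so the larger count there was the one above, 59 of 81 were nearer the Gad2-Cre control than its cKO and 35 of 72 nearer Gad2-Cre, and the Gad2-Cre median difference turned to 0.0463. At a difference of 0.2, 35 were above and 16 below the Emx1-Cre control and 17 above and 39 below the Gad2-Cre control. Without Immt, 21 of 119 were below the Gad2-Cre control, with a median difference of 0.0188, and 90 of 119 were nearer that control than its cKO. Of all values, 38 stayed close to the reported value, including each one matched by event name alone, while 29 moved and 3 turned. A median counted as close if it kept its sign and moved by less than 0.05, which exceeds the size of the reported median differences. A count was judged by its ratio to the reported count, whatever the number of events. Cassette exons nearer the Emx1-Cre control than its cKO thus counted as moved, at 72.6% against 73.3% of all shared events. Limits are the pooled levels, the unnamed Purkinje order and low coverage, under 30 in a table for 4833439L19Rik, Camk2g, Epha5, Grik1, Grin1, Immt, Mink1 and Rnpc3 among others.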

Other observations

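Of the Purkinje events outside the members, 15 in 7 genes were listed in the table that compares the 2 cortical controls, so a level was given there for both. All 15 were mixed, with 0 higher and 0 lower in both Purkinje groups than both controls. Pam, which encodes an enzyme of peptide amidation, had a 318 nt exon at 0.609 and 0.790 in Purkinje groups 1 and 2, against 0.639 in the Emx1-Cre and 0.967 in the Gad2-Cre control. Its Purkinje levels lay below the inhibitory control and group 1 was near the excitatory one. A 24 nt exon of Clasp2, encoding a microtubule plus-end protein, had 0.722 and 0.610, against 0.796 and 0.973. Both Purkinje levels of that exon lay below both controls, with group 1 within 0.1 of the Emx1-Cre control. Gnal, encoding an olfactory-type G protein subunit, had a 246 nt region at 0.237 and 0.0748, against 0.136 and 0.475. Tbp, encoding the TATA-binding protein, had a 49 nt exon at 0.261 and 0.568, against 0.544 and 0.684. For both genes the Emx1-Cre control lay between the Purkinje levels and the Gad2-Cre control above them.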
